A study of Mus musculus with 16 samples.

Results

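Gene expression in the striatum of wild-type mice was compared between 3 and 12 weeks of age, from weaning age to young adulthood. The comparison rests on 4 of the 16 RNA sequencing libraries of the series, 2 labelled wild type at 3 weeks and 2 labelled wild type at 12 weeks. Genes were kept where at least 2 of these 4 libraries had 1 RPKM or more (read number scaled to gene length and library size), which left 10774 of the 24176 gene symbols listed. All striatal mice were B6/FVB F1, and RNA was extracted with Trizol from tissue frozen on dry ice. A further 4 striatal libraries, 2 at each age, are labelled with the genotype Gad2-Cre;Rai1CKO, that is, Cre expressed from the GABA neuron gene Gad2 and a conditional allele of Rai1, whose product binds chromatin. They contributed to the estimate of the spread and gave a second, separate pair of ages. Some values from 3-week cortex and 8-week hypothalamus are also given. Each of these regions had 2 wild-type libraries and 2 labelled Rai1-KO, with the driver Nestin-Cre in cortex and Vglut2-Cre in hypothalamus. Nothing in the labels states that the 2 replicates of a group came from different mice, and p-values then reflect only how far the libraries themselves spread, possibly for technical reasons.

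The striatum is built mostly of spiny projection neurons, GABA-releasing cells that carry dopamine D1 or D2 receptors and receive dense glutamate input from cortex and thalamus. Between weaning and adulthood these neurons finish forming spines and synapses, exchange juvenile receptor and channel subunits for adult ones, and become surrounded by mature astrocytes and myelinated axons. Oligodendrocytes arise from proliferating precursors, pass through a short premyelinating stage and then make myelin, a membrane rich in cholesterol that glial cells synthesise locally. In bulk tissue, fewer cells of a type and less RNA per cell cannot be told apart.

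Rai1 itself was read beside the genotype labels. RPKM per gene symbol in bulk tissue do not show which part of a conditional allele is lost, or in which cells. They therefore cannot settle whether a label is right. It stood at 3.58 and 2.69 RPKM in the wild-type libraries at 3 weeks and at 6.28 and 4.79 at 12 weeks. The libraries labelled knockout held 7.16 and 6.29 RPKM at 3 weeks and 12.2 and 14.2 at 12 weeks. Rai1 was thus higher, not lower, in the knockout-labelled libraries at each age, and these libraries are named by their label throughout.

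Between 3 and 12 weeks, 2003 genes rose (18.6% of those tested) and 1967 fell (18.3%) in wild-type striatum by limma's moderated test at an adjusted p under 0.05. With a change of at least 2-fold, 277 rose (2.57%) and 229 fell (2.13%). Replicates correlated at r = 0.987 at 3 weeks and 0.985 at 12 weeks across genes, and libraries of different ages at 0.908 to 0.933. The depth estimated from the RPKM steps was about 31200000 to 35500000 reads at 3 weeks and 21900000 to 23600000 at 12 weeks over the 8 striatal libraries, where 1 read in a gene of 2 kb was worth 0.0141 to 0.0146 and 0.0223 to 0.0229 RPKM in the wild-type libraries. Values are RPKM divided by a median-ratio factor of 0.81 to 1.2 per library, and changes are differences of log2(scaled RPKM + 0.5), 12 minus 3 weeks. Without this factor the median change of all genes was -0.26 and the calls were 563 higher and 2392 lower, so that 19.1% of calls were higher instead of 50.5%. Directions below are therefore relative to the median gene. Without 12-week replicate 1, 816 genes rose and 989 fell (44.7% of the calls kept), and without 3-week replicate 2, 1021 rose and 1225 fell (54.4% kept). Counts of 4 or fewer list members often shifted when 1 library was left out.

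The 3-week striatal libraries, of either genotype label, stood apart in genes that have near-identical copies elsewhere in the genome. Among 140 tested genes with at least 50% of their 50-base words shared with other genes, 61 rose and 25 fell, and 6 to 9 of them had under 0.1 RPKM in each 3-week striatal library against 0 or 1 in each of the other 12 libraries. Gm12070, whose 50-base words are 99.6% shared, went from 3.05 and 2.87 to 101 and 94 RPKM. Of the 15 genes that rose most, 10 were of this kind, whereas all 15 that fell most shared under 5%. The change in wild-type striatum also followed transcript length, with Spearman rho = 0.34 over 10339 genes (libraries are shared by all genes), against 0.05 between the knockout-labelled libraries. Among the longest transcripts, of 5555 bases and over in 5 classes of equal number, 37.7% of genes rose and 5.37% fell, and among the shortest, of up to 2087 bases, 11.0% rose and 28.2% fell. The part that copies and length play in single results was not tested, but counts after correction for length are given beside the neuronal groups, many of whose genes are long. Over all 10339 genes, 1772 rose and 1901 fell after length correction. After correction for GC content, given for some groups, 1817 rose and 1909 fell.

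**Figure D1:**
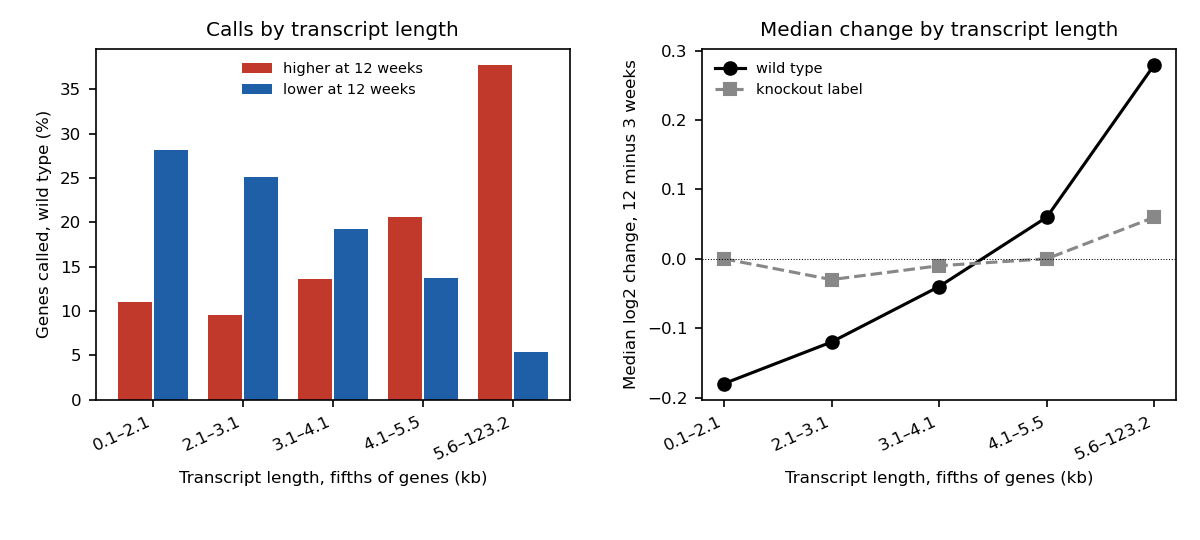
Share of genes that rose or fell in wild-type striatum (left, percent of genes in each class) and median log2 change in wild-type and knockout-labelled striatum (right) against 5 equal classes of transcript length in kb. The wild-type median climbs from -0.18 in the shortest class to 0.28 in the longest, and the knockout-labelled median from 0.00 to 0.06.

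In all, 1006 tested genes stand in 44 lists of cell types, pathways and protein families, of which 196 rose and 250 fell. Medians ran from -0.50 to -1.32 in the oligodendrocyte, astrocyte, microglia and sterol lists. They were 0.10 to 0.38 in the lists of GABA and glutamate transmission, synapses and ion channels, and nearer 0 in those of monoamine, acetylcholine, opioid and cannabinoid receptors (0.07) and neuropeptides (0.01). After length correction the medians for GABA and glutamate transmission, synapses and ion channels were -0.01 to 0.19, against -0.01 over all genes.

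**Figure D2:**
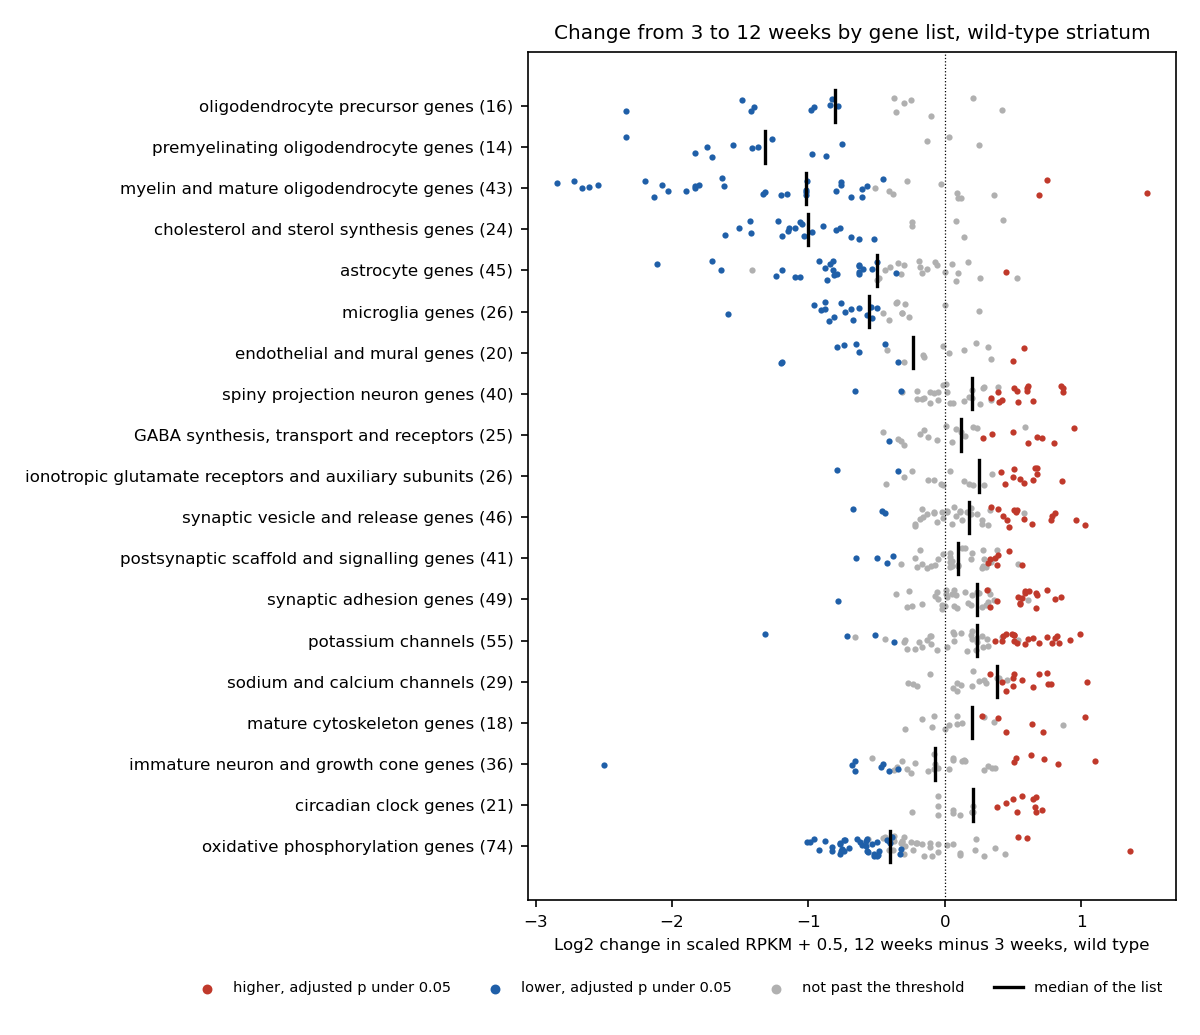
Log2 change from 3 to 12 weeks of each tested gene in 19 lists (number of tested genes in parentheses), coloured by call, with the list's median as a black bar. Medians run from -1.32 for premyelinating oligodendrocyte genes to 0.38 for sodium and calcium channels.

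The oligodendrocyte lineage held the largest decreases. Of 16 tested precursor genes, 9 fell and 0 rose, with a median log2 change of -0.81 against 0.00 over all genes. The counts for this list were 8 to 10 with each library left out and 11 after length correction. Pdgfra, the growth factor receptor that defines precursor cells, stood at 7.38 and 6.33 RPKM at 3 weeks and at 3.81 and 3.45 at 12 weeks, without overlap (log2 change -0.83, SE 0.14, adjusted p = 0.00244, limma). The lineage transcription factors Olig1 and Olig2 fell further. Olig1 went from 39.3 and 24.6 to 11.2 and 10.4 RPKM (log2 change -1.49, SE 0.22, adjusted p = 0.00109) and Olig2 from 10.6 and 7.55 to 3.05 and 3.12 (log2 change -1.40, SE 0.19, adjusted p = 0.000726). Sox10, the factor present through the whole lineage, stood at 9.28 and 4.62 and then 5 and 4.98 RPKM and did not pass the test (log2 change -0.37, SE 0.27, adjusted p = 0.316). Its 12-week values lay between its 3-week values. Cspg4, the NG2 proteoglycan of precursors, did not pass either, at 1.97 and 1.05 and then 1.17 and 1.01 RPKM.

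Genes of the premyelinating stage, when a cell leaves the cycle and begins to wrap, moved more. Of 14 tested, 1 of them shared with the precursor list, 11 fell and 0 rose, with a median of -1.32, and the count was 11 with every single library left out. Gpr17, a receptor of committed precursors that is lost as myelin forms, dropped from 42.9 and 30.6 to 6.58 and 6.95 RPKM, 5.06-fold on the log2(value + 0.5) scale (log2 change -2.34, SE 0.17, adjusted p = 2.52e-05). Enpp6, an enzyme of newly formed oligodendrocytes, went from 12 and 7.39 to 2.28 and 2.3 RPKM (log2 change -1.83, SE 0.21, adjusted p = 0.000358). In each case both 12-week libraries lay below both 3-week libraries. Bmp4, a signal that holds precursors back from differentiation, fell from 2.08 and 1.52 to 0.341 and 0.23 RPKM (log2 change -1.55, SE 0.18, adjusted p = 0.000386). Bcas1, another gene of early myelinating cells, held 9.46 and 7.01 and then 9.33 and 7.47 RPKM, with overlapping ages (log2 change 0.03, adjusted p = 0.897).

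Myelin genes themselves were lower at 12 weeks. Of 43 tested, 31 fell and 3 rose, with a median of -1.02, against 18.3% and 18.6% of all genes. The summed level of the list was 3969 and 2748 scaled RPKM at 3 weeks and 889.9 and 787.8 at 12 weeks. Mbp, which compacts the myelin membrane, dropped from 835 and 511 RPKM at 3 weeks to 203 and 165 at 12 weeks (log2 change -1.83, SE 0.23, adjusted p = 0.000556). Mog, a glycoprotein of the outermost myelin layer, had the largest change of the list, from 77.2 and 56.9 to 9.2 and 8.52 RPKM (7.14-fold, log2 change -2.84, SE 0.14, adjusted p = 2.59e-06). In both genes 3-week replicate 1 was the highest library, and the lower 3-week library still held more than 2 times the level of the higher 12-week one.

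Other proteins of the myelin sheath also fell. Mal, a lipid raft protein of compact myelin, went from 291 and 229.9 to 41 and 36.8 RPKM. Cldn11, the tight junction claudin of the sheath, went from 241 and 168 to 31.9 and 31. Cnp, an enzyme that keeps cytoplasmic channels in myelin open, went from 358 and 286 to 55 and 49.1. Their log2 changes were -2.72, -2.66 and -2.61, with adjusted p-values from limma of 2.62e-06, 9.95e-06 and 4.3e-06. Mag, the adhesion protein of the layer next to the axon, dropped from 142 and 103 to 28.7 and 25.8 RPKM, and Mobp from 161 and 112 to 23.7 and 21.6. The enzymes of the myelin lipids galactosylceramide and sulfatide, Ugt8a, Fa2h and Gal3st1, fell, with log2 changes of -2.03, -1.90 and -1.63. Gsn, an actin-severing protein that oligodendrocytes carry in quantity and that stands outside the list, had the largest decrease of all genes tested, from 50.6 and 40.6 to 5.63 and 5.36 RPKM (log2 change -2.93, SE 0.12, adjusted p = 5.73e-07).

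Not every gene of mature oligodendrocytes went down. Ptgds, which makes prostaglandin D2 and is also a defining gene of the meninges, rose from 2.74 and 4.13 to 9.88 and 10.8 RPKM (log2 change 1.48, SE 0.41, adjusted p = 0.0205), and in the knockout-labelled libraries it ranged from 4.54 to 13.8 at 3 weeks. Il33 and Qdpr rose by 0.75 and 0.69. Without 12-week replicate 1, 1 gene of the list was called higher. Car2, the carbonic anhydrase of oligodendrocytes, held 28.5 and 24 and then 26.6 and 29.2 RPKM, and Myrf, the transcription factor that starts myelin gene expression, 4.25 and 2.03 and then 2.37 and 1.57. Neither passed the test, and in both the ages overlapped. Deposited RPKM of Mog, which were not scaled, were 7.90 and 8.38 in wild-type 3-week cortex and 10.8 in both wild-type 8-week hypothalamus libraries. The Rai1-KO libraries held 15.9 and 12.2 in cortex and 10.9 and 12.0 in hypothalamus. In 3-week striatum it was 54.7 to 81.1 over both genotype labels. The 3-week striatal libraries thus stood above the 3-week cortex as well as above the 12-week striatum.

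To show the sequence in front of such genes, the 250 bases before the gene start were read from RefSeq (GRCm38.p6), where 29 of the 43 myelin genes matched. The 3 motifs used here were searched separately on both strands, and their matches may overlap. The letters ACAAAG, bound by SOX factors such as Sox10, were found in front of 7 of the 29 myelin genes (24.1%) and 6 of the 22 that fell (27.3%). They stand in 16.5% of all 27025 promoters and 11.3% of those of tested genes. A match is a description of the sequence and not a measured binding site. Promoters of 3 myelin genes that fell are shown 5′ to 3′ on the gene's strand, with ACAAAG or its reverse complement in capitals, at chr9:120149492-120149741 (plus strand), chr7:30914864-30915113 (minus strand) and chr11:100574689-100574938 (plus strand).
Mobp: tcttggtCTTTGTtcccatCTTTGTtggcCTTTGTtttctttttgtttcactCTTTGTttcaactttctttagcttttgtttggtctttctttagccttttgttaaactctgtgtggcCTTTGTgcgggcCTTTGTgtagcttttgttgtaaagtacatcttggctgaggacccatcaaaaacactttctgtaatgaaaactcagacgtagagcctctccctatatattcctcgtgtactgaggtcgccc
Mag: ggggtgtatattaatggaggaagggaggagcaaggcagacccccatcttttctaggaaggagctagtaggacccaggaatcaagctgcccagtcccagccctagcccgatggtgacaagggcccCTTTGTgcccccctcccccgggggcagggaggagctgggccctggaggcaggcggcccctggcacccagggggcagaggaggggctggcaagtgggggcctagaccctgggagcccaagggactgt
Cnp: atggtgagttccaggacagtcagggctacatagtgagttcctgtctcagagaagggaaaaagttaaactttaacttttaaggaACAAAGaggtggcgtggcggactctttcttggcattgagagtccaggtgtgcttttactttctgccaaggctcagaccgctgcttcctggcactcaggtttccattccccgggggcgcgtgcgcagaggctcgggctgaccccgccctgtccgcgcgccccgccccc

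Cholesterol synthesis went down along nearly the whole pathway. Of 24 tested genes, 19 fell and 0 rose, with a median of -1, and 17 to 19 fell with each library left out. Nsdhl and Cyp51, which remove methyl groups from lanosterol, led the list. Nsdhl held 8.09 and 6.76 RPKM at 3 weeks and 1.9 and 2.29 at 12 weeks (log2 change -1.61, SE 0.13, adjusted p = 4.21e-05), and Cyp51 13.9 and 11.2 and then 4 and 4.11 (log2 change -1.51, SE 0.12, adjusted p = 4.44e-05). Sqle, which makes the epoxide that is closed into the sterol rings, dropped from 9.56 and 8.23 to 3.67 and 3.37 RPKM (log2 change -1.22, SE 0.12, adjusted p = 0.000149). Mvk, the mevalonate kinase near the start of the pathway, went from 3.32 and 3.65 to 1.09 and 1.65 (log2 change -1.10, SE 0.16, adjusted p = 0.00119). The ages did not overlap in any of these 4 genes. Idi1 and Fdft1 also fell, but share 21.3% and 10.8% of their 50-base words with other genes.

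The main transcription factor of the pathway did not pass the test. Srebf2, the sterol-regulated factor, held 9.02 and 6.69 and then 9.6 and 7.72 RPKM with overlapping ages (log2 change 0.14, adjusted p = 0.527). In front of the sterol genes, CCAAT, the box bound by the factor NF-Y, was found within 250 bases for 14 of 16 matched genes (87.5%) and for 13 of the 14 that fell (92.9%). It stands in 34.5% of all promoters, 36.6% of those of tested genes and 34.5% of the myelin promoters (10 of 29). The sterol regulatory element TCACNCCAC was found in 0 of the 16 and in 1.04% of all promoters, which says only that these letters are not in these windows.

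Promoters of 4 sterol genes that fell are shown to make the number and spacing of the CCAAT boxes visible, with CCAAT or its reverse complement ATTGG in capitals. They lie at chr5:114444019-114444268 (plus strand, 5 matches), chr8:64733579-64733828 (minus strand, 3 matches), chrX:72918271-72918520 (plus strand, 2 matches) and chr5:4104698-4104947 (minus strand, 1 match) of GRCm38.p6, from RefSeq.
Mvk: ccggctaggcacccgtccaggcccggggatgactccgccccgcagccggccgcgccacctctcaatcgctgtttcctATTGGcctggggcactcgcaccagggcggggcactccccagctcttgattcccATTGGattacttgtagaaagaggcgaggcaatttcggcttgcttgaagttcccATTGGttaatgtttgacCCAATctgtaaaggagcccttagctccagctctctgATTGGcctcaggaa
Msmo1: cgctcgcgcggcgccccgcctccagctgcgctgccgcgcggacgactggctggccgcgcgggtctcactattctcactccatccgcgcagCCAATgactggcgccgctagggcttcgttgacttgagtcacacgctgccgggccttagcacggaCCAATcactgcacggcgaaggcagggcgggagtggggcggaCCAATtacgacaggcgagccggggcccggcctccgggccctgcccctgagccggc
Nsdhl: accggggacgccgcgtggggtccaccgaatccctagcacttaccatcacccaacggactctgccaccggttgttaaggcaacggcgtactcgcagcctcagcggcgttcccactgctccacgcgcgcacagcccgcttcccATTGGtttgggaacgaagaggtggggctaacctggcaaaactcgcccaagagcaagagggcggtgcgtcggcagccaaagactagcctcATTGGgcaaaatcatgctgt
Cyp51: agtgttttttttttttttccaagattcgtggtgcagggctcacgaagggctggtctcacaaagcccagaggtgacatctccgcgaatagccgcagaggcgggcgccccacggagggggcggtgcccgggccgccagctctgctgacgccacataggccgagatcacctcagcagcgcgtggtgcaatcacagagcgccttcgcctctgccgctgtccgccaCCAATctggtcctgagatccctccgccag

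Astrocyte genes moved in part. Of 45 tested, 23 fell and 1 rose, with a median of -0.50, and 17 to 25 fell with each library left out. The gene that rose was Grm5, which is described below as a glutamate receptor of spiny neurons. Gfap, the intermediate filament of astrocytes, stood at 31.3 and 22.4 RPKM at 3 weeks and 5.79 and 5.71 at 12 weeks (4.31-fold, log2 change -2.11, SE 0.29, adjusted p = 0.000873). S100b, a calcium-binding protein of astrocytes and oligodendrocytes, went from 59.3 and 53 to 23.5 and 23.3 (log2 change -1.24, SE 0.10, adjusted p = 3.98e-05). Gjb6, the connexin that joins mature astrocytes, dropped from 16.7 and 13.4 to 5.02 and 3.94 RPKM (log2 change -1.64, SE 0.18, adjusted p = 0.000247). All 3 had both 12-week libraries below both 3-week ones. Aldh1l1, a folate enzyme used as a marker of all astrocytes, went from 6.02 and 5.33 to 2.69 and 3.04 (log2 change -0.88, SE 0.12, adjusted p = 0.000924), and Aqp4, the water channel of perivascular endfeet, from 28.1 and 18.2 to 13.2 and 11.4 (log2 change -0.86, SE 0.22, adjusted p = 0.0134).

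The glutamate transporters of astrocytes did not move together. Slc1a3, the transporter of early astrocytes, fell from 95.8 and 88.1 to 52.8 and 49.6 RPKM (log2 change -0.84, SE 0.11, adjusted p = 0.000588). Slc1a2, the main transporter of the adult forebrain, held 197 and 134 and then 193 and 158, with overlapping ages (log2 change 0.10, SE 0.21, adjusted p = 0.736). Glul, which turns glutamate into glutamine, fell, with a log2 change of -0.63, and 12.6% of its 50-base words are shared with other genes. Gja1 and Kcnj10, the connexin 43 and the potassium channel of astrocytes, did not pass the test, and Kcnj10 differed more between the 3-week libraries (15.1 and 7.54 RPKM) than between ages. Genes shared by radial glia and young astrocytes were among those that fell, with Fabp7 at -1.19 and Vim, an intermediate filament, from 5.08 and 5.24 to 2.07 and 2.42 RPKM (log2 change -1.05, SE 0.15, adjusted p = 0.000946). The list of stem and progenitor genes had 7 of 20 lower and 1 higher.

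Microglia, the resident macrophages, had 16 of 26 genes lower and 0 higher, with a median of -0.55. Summed over the list, the level was 569.4 and 539.5 scaled RPKM at 3 weeks and 351.3 and 353.5 at 12 weeks. Most of each sum came from Apoe, which also stands in the astrocyte list. Its deposited RPKM were 379 and 437 at 3 weeks and 185 and 242 at 12 weeks. Fcrls, a receptor that separates microglia from other macrophages, went from 7.61 and 6.94 to 2.02 and 2.16 RPKM (log2 change -1.59, SE 0.16, adjusted p = 0.000149). Tmem119, another microglial marker, dropped from 13.7 and 11.4 to 6.36 and 6.81 (log2 change -0.88, SE 0.13, adjusted p = 0.0014). C1qb and C1qc, subunits of the complement protein that tags synapses, fell, with log2 changes of -0.85 and -0.81, and the third subunit, C1qa, did not pass the test (-0.41, adjusted p = 0.0635). Csf1r, the receptor on which microglia depend, held 13.8 and 9.8 and then 9.3 and 7.57 RPKM and missed the threshold (adjusted p = 0.0553), while Sall1, their identity factor, held 1.58 and 1.18 and then 1.95 and 1.51.

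**Figure D3:**
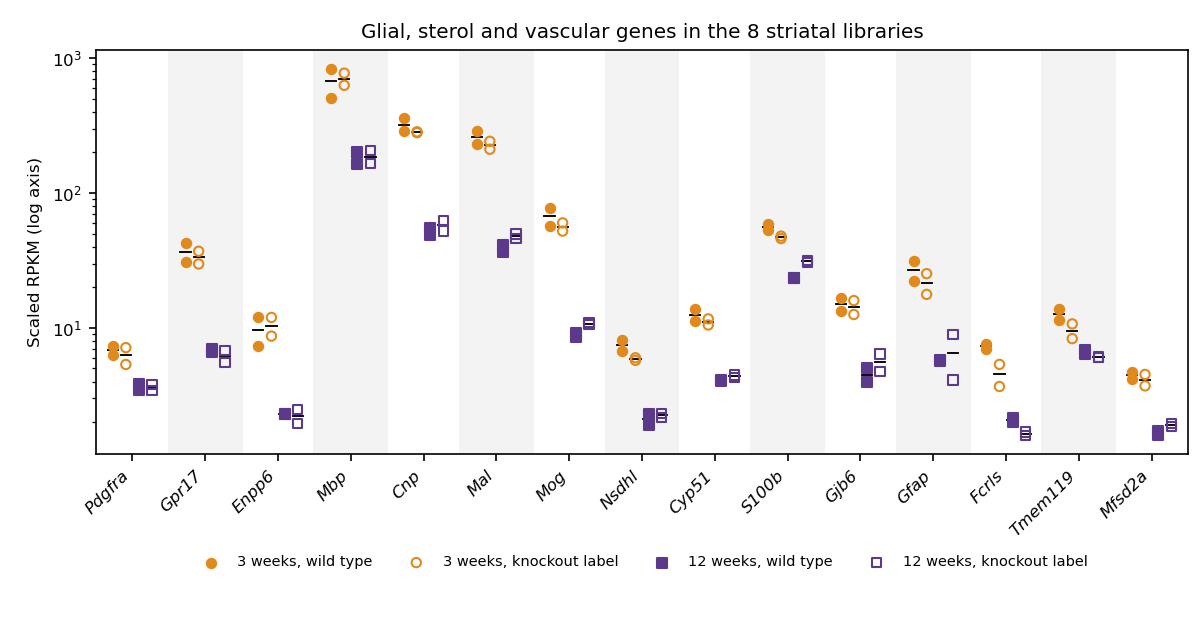
Scaled RPKM on a log axis for 15 glial, sterol and vascular genes in the 8 striatal libraries, 1 symbol per library and a black bar at each group's mean (n = 2). For every gene shown, the 12-week wild-type symbols lie below the 3-week wild-type ones, with Mog at 9.20 and 8.52 against 77.2 and 56.9.

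The vessel wall and the extracellular matrix were mixed. Of 20 endothelial and mural genes 8 fell and 2 rose, and the number that fell was 5 without 12-week replicate 1 or 12-week replicate 2. Mfsd2a, the lipid transporter that keeps the blood-brain barrier tight, went from 4.74 and 4.16 to 1.72 and 1.6 RPKM (log2 change -1.19, SE 0.13, adjusted p = 0.000235). Slc2a1 and Slc16a1, the barrier's glucose and lactate transporters, fell, with log2 changes of -0.79 and -1.20. Pecam1, found in all endothelium, held 2.19 and 1.8 and then 1.85 and 1.65 RPKM and did not pass (adjusted p = 0.423). Among 27 matrix genes 10 fell and 4 rose, 1 without 12-week replicate 1. The matrix proteoglycans Ncan and Bcan dropped from 32.6 and 25.3 to 17.9 and 17.8 and from 27.6 and 21.7 to 17 and 13.7 RPKM (log2 change -0.68, SE 0.13 and log2 change -0.67, SE 0.15). Reln, the secreted guide of neuronal positioning, rose by 0.55.

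Markers of neighbouring tissues were measured beside these groups. Of 3 tested choroid plexus genes 2 fell. Ttr, the transthyretin of that tissue, held 5.32 and 3.71 RPKM at 3 weeks and 1.53 and 0.838 at 12 weeks, and 2.92 and 3.49 and then 3.06 and 3.16 in the knockout-labelled libraries. The choroid list summed to 31.9 and 21.5 scaled RPKM at 3 weeks and 13.5 and 11.2 at 12 weeks. Most of each sum came from Enpp2, which also stands in the myelin list. Its deposited RPKM were 25.8 and 19.3 at 3 weeks and 8.33 and 8.96 at 12 weeks. Slc17a7, the vesicular glutamate transporter of cortical neurons, varied as much within an age as between ages, at 1.29 and 4.03 and then 3.31 and 9.4 RPKM (log2 change 1.11, SE 0.50, adjusted p = 0.109). It held 113 to 129 deposited RPKM in cortex over both genotype labels. Of 9 tested cortical markers 2 fell and 0 rose, and their sum was 66.0 and 76.6 at 3 weeks and 74.2 and 79.1 at 12 weeks. Markers of the hypothalamus such as Hcrt and Otp, and the globin genes of blood, were listed at 0 in all 4 libraries, but so were Rpl26 and Ndufs5, which every cell uses, so a listed 0 is not a measure of absence. Nkx2-1 and Pomc, from the list of septal, pallidal and hypothalamic markers, were at 0.0676 to 0.346 and 0.111 to 0.378 scaled RPKM. The part of such tissue in the other results was not tested.

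Genes that define spiny projection neurons were high at both ages. Drd2 stood at 34.2 to 51.2 scaled RPKM in wild-type striatum. Its deposited RPKM were 1.92 to 3.84 in cortex and 3.13 to 4.21 in hypothalamus, each over both genotype labels. Ppp1r1b, the DARPP-32 phosphoprotein that integrates dopamine signals, held 217 and 226 RPKM at 3 weeks and 197 and 187 at 12 weeks and did not pass the test (log2 change -0.20, SE 0.13, adjusted p = 0.249). The D1 dopamine receptor gene Drd1 held 82.2 and 92.4 and then 78.8 and 76.3 (log2 change -0.17, SE 0.12, adjusted p = 0.316). Adora2a, the adenosine receptor of D2 neurons, held 92.5 and 93.9 and then 89.6 and 90.1 (log2 change -0.05, SE 0.14, adjusted p = 0.793). In all 3 genes both 12-week libraries were slightly below both 3-week ones, short of the threshold. Summed over the 40 genes of the list, the level was 2786 and 2694 scaled RPKM at 3 weeks and 2901 and 2886 at 12 weeks.

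Within that list 14 of 40 rose and 2 fell, with a median of 0.20. Transcription factors were among those that rose. Bcl11b, or CTIP2, which specifies these neurons, went from 14 and 12.4 to 23.4 and 24.8 RPKM (log2 change 0.85, SE 0.10, adjusted p = 0.000304), Foxp1 from 15.9 and 15.1 to 24.8 and 22.7 (log2 change 0.60, SE 0.09, adjusted p = 0.00156) and Foxp2 from 4.05 and 4.3 to 7.11 and 6.55 (log2 change 0.65, SE 0.10, adjusted p = 0.00156). Each had both 12-week libraries above both 3-week libraries. Rgs9, whose product ends dopamine receptor signalling, rose from 18.9 and 16.8 to 37.2 and 29.4 RPKM (log2 change 0.87, SE 0.12, adjusted p = 0.000931), and Dgkb, a diacylglycerol kinase of the striatum, from 26.4 and 24 to 49.7 and 43.3 (log2 change 0.87, SE 0.11, adjusted p = 0.000446). The D2 pathway genes Drd2 and Penk rose as well. Drd2 went from 35.4 and 34.2 to 51.2 and 50.1 (log2 change 0.54, SE 0.12, adjusted p = 0.00847) and Penk, the enkephalin precursor, from 186 and 173 to 279.8 and 239 (log2 change 0.53, SE 0.14, adjusted p = 0.0172). The D1 pathway peptides Tac1 and Pdyn did not pass, at log2 changes of 0.04 and -0.11, and the difference between the pathways was not tested.

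Gng7, the gamma subunit of the striatal G protein, went the other way, from 370.4 and 320.1 to 217 and 218 RPKM (log2 change -0.66, SE 0.13, adjusted p = 0.00501). After length correction 11 spiny neuron genes rose and 3 fell, without scaling 1 did, and without 12-week replicate 1 7 did. Among 14 interneuron genes 2 rose and 0 fell, 3 and 0 after length correction. Slc5a7, the choline transporter of cholinergic interneurons, went from 3.17 and 3.47 to 5.71 and 5.21 RPKM (log2 change 0.64, SE 0.10, adjusted p = 0.00181), while Chat, the enzyme of the same cells, held 2.78 and 3.68 and then 3.99 and 4.17 and did not pass (adjusted p = 0.184). Sst held 16.4 and 18.7 and then 24.4 and 22.3, higher at 12 weeks in both libraries but short of the threshold (adjusted p = 0.0591). Nts, the neurotensin precursor, fell from 5.55 and 6.77 to 1.03 and 1.62 RPKM (log2 change -1.88, SE 0.30, adjusted p = 0.00161).

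Genes for inhibitory transmission rose in part. Of 25 tested, 8 rose and 1 fell, 6 and 2 after length correction and 5 and 3 after correction for GC content. The subunits of the synaptic GABA-A receptor moved upward in part. Gabra2 went from 6.63 and 5.96 to 12.2 and 10.4 RPKM (log2 change 0.80, SE 0.12, adjusted p = 0.00146) and Gabrb2 from 13 and 10.6 to 24.2 and 22.2 (log2 change 0.95, SE 0.16, adjusted p = 0.00225). The ages did not overlap in either gene. Slc32a1, which loads GABA into vesicles, rose from 11.9 and 11.7 to 19.5 and 17.1 (log2 change 0.61, SE 0.11, adjusted p = 0.00274). The GABA-making enzymes Gad1 and Gad2 did not pass, at 0.24 and 0.08. Without scaling 2 of the 25 rose, and without 3-week replicate 2 or 12-week replicate 1 it was 4 in each case.

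Ionotropic glutamate receptors and their partners had 11 of 26 genes higher and 2 lower, with a median of 0.25. Gria2, the AMPA subunit that blocks calcium entry, went from 35.8 and 35.4 to 56.4 and 56.3 RPKM (log2 change 0.66, SE 0.10, adjusted p = 0.00116). Gria3 and Gria4 rose by 0.86 and 0.65, and Gria1, the subunit added during plasticity, held 37.5 and 42.3 and then 44.4 and 43.1 and did not pass (adjusted p = 0.296). For NMDA receptors, Grin1, the subunit in every receptor, rose from 16.5 and 15.5 to 23.1 and 22.9 (log2 change 0.51, SE 0.11, adjusted p = 0.00593). Cnih2, a chaperone that slows AMPA receptors, fell from 69 and 62 to 37.6 and 37.6 RPKM (log2 change -0.79, SE 0.12, adjusted p = 0.00108), while Shisa9 and Neto2, auxiliary subunits of AMPA and kainate receptors, rose by 0.41 and 0.44. Metabotropic receptors had 3 of 6 higher, with Grm5, the main receptor of spiny neurons, from 42.6 and 41.2 to 60.9 and 54.5 (log2 change 0.45, SE 0.10, adjusted p = 0.00686), and 1 of the 6 was called without 12-week replicate 1. After length correction 7 ionotropic genes rose and 3 fell, and 2 metabotropic genes rose. Without scaling it was 1, without 3-week replicate 2 it was 7, and without 12-week replicate 1 it was 5.

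Genes known to exchange between juvenile and adult forms were followed as a list of 32, of which 12 rose and 5 fell. Grin2a, the adult NMDA subunit, rose from 14.2 and 12.2 to 23.3 and 19.5 RPKM (log2 change 0.68, SE 0.12, adjusted p = 0.00271), with 14.2% of its 50-base words shared. Grin2b, the juvenile subunit it is known to replace, rose too, from 17.7 and 14.9 to 26.9 and 22.3 (log2 change 0.58, SE 0.15, adjusted p = 0.0132), but its change was -0.12 after length correction, which was not past the threshold. Grin3a, another juvenile subunit, held 2.8 and 2.48 and then 2.04 and 2.04, lower in both libraries and short of the threshold (adjusted p = 0.134). For sodium channels, Scn3a, known from immature neurons, rose from 6.22 and 5.88 to 11.2 and 9.87 (log2 change 0.75, SE 0.11, adjusted p = 9e-04), and so did Scn8a, the channel of the adult axon segment, from 10.8 and 9.08 to 15.8 and 12.9 (log2 change 0.51, SE 0.13, adjusted p = 0.016).

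The chloride transporters, whose exchange turns GABA from exciting to inhibiting early in life, were already apart at 3 weeks. Slc12a5, the adult exporter KCC2, held 24.4 and 21.5 and then 25.6 and 25.4 RPKM (log2 change 0.15, SE 0.09, adjusted p = 0.232). Slc12a2, the juvenile importer NKCC1, held 9.89 and 7.07 and then 6.55 and 5.5 (log2 change -0.45, SE 0.17, adjusted p = 0.0649). Neither passed the test, and per length the exporter was the higher of the 2 in every library. Among the postsynaptic pairs, Dlg4, the adult scaffold PSD-95, fell from 51.4 and 44.1 to 35.2 and 35.6 (log2 change -0.42, SE 0.10, adjusted p = 0.0124), and Dlg3, the juvenile SAP102, did not pass (0.15, adjusted p = 0.225). After length correction 6 switch genes rose and 8 fell. Without scaling 1 rose, and without 3-week replicate 2 or 12-week replicate 1 it was 4 in each case.

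On the presynaptic side, 15 of 46 vesicle and release genes rose and 3 fell. Genes of the active zone, where vesicles fuse, were among them. Rims1, which ties vesicles to calcium channels, went from 6.6 and 6.46 to 11 and 12.1 RPKM (log2 change 0.78, SE 0.12, adjusted p = 0.00149). Pclo, or Piccolo, went from 4.87 and 3.44 to 10.4 and 7.62 (log2 change 1.03, SE 0.24, adjusted p = 0.0094) and the priming factor Unc13c from 10.7 and 7.4 to 19.8 and 16 (log2 change 0.96, SE 0.18, adjusted p = 0.00351). All had higher values in both 12-week libraries. Syt1, the calcium sensor of fast release, rose from 48.9 and 48.1 to 70.8 and 67.5 RPKM (log2 change 0.51, SE 0.13, adjusted p = 0.0129). Core genes of the vesicle and fusion machinery did not pass the test. Snap25 held 112 and 130.5 and then 122 and 139, Syp 84 and 98.1 and then 79.6 and 86, and Vamp2 26.5 and 20.6 and then 28.2 and 21.9, with overlapping ages in all 3. After length correction 12 of the 46 rose and 3 fell, and 2 rose without scaling, 5 without 3-week replicate 2 and 4 without 12-week replicate 1.

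Postsynaptic scaffold and signalling genes were close to the background, with 7 of 41 higher and 4 lower, and 6 higher and 7 lower after length correction. Ppp3ca, the catalytic subunit of calcineurin, went from 104 and 111 to 168 and 152 RPKM (log2 change 0.57, SE 0.12, adjusted p = 0.00667). Homer1, which links metabotropic receptors to calcium stores, went from 23.7 and 24.3 to 32.3 and 30.7 (log2 change 0.38, SE 0.09, adjusted p = 0.00856), but its change was -0.03 after correction for GC content. Camk2a, the kinase of the adult spine, held 39.3 and 29.5 and then 57.6 and 43.2 and missed the threshold (adjusted p = 0.062). The number that rose was 12 after correction for GC content and 12 with a replicate block. It was 0 without scaling or without 12-week replicate 1, 2 without 3-week replicate 2, 11 without either knockout-labelled 3-week library, 4 without 12-week replicate 2 and 3 without either knockout-labelled 12-week library.

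Adhesion molecules that span the synaptic cleft had 16 of 49 higher and 1 lower. These were 15 and 3 after length correction and 9 and 3 after correction for GC content, and 11 to 17 were higher with each library left out. Under the GC correction 1817 of all 10339 genes rose, a share near that of the list. Slitrk4, a postsynaptic partner of receptor phosphatases, went from 2.88 and 2.57 to 5.38 and 4.93 RPKM (log2 change 0.81, SE 0.12, adjusted p = 0.00103). Nlgn1, the neuroligin of excitatory synapses, went from 16.7 and 16 to 24.6 and 23.2 (log2 change 0.54, SE 0.10, adjusted p = 0.00296) and Lrrtm2, another neurexin partner, from 9.85 and 9.21 to 14.8 and 13.5 (log2 change 0.55, SE 0.10, adjusted p = 0.00366). The ages did not overlap in these genes. Nrxn3, a neurexin, rose by 0.62. Il1rap, a receptor subunit that also joins synapses, fell, with a log2 change of -0.78. Without scaling 2 of the 49 rose.

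Potassium channels had 20 of 55 genes higher and 4 lower, and sodium and calcium channels 13 of 29 higher and 0 lower. Kcna4, the A-type channel of the axon, rose from 16.6 and 17.2 to 36.5 and 32 RPKM (log2 change 0.99, SE 0.11, adjusted p = 0.000247). Kcnd2, the A-type channel of the dendrite, went from 20.6 and 18 to 36.4 and 29.5 (log2 change 0.75, SE 0.12, adjusted p = 0.00181). Cacnb4, a calcium channel subunit, went from 9.62 and 8.53 to 20 and 18.4 RPKM (log2 change 1.04, SE 0.13, adjusted p = 0.000443), Cacna1e from 14.1 and 13.5 to 26.6 and 21.1 (log2 change 0.76, SE 0.15, adjusted p = 0.0041) and Scn1a from 8.41 and 6.8 to 14.1 and 12.6 (log2 change 0.78, SE 0.14, adjusted p = 0.00262). All 5 genes had both 12-week libraries above both 3-week ones. Kcnj2, the inward rectifier that holds spiny neurons at their resting voltage, held 15.3 and 16.9 and then 14.8 and 15 and did not pass (adjusted p = 0.587). After length correction 14 potassium channels rose and 3 fell (median 0.08), and 6 of 29 sodium or calcium channels rose and 0 fell (median 0.19). Over all 10339 genes, 1772 rose and 1901 fell after that correction. Without scaling these were 6 and 1, without 3-week replicate 2 11 and 7, and without 12-week replicate 1 7 and 5.

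**Figure D4:**
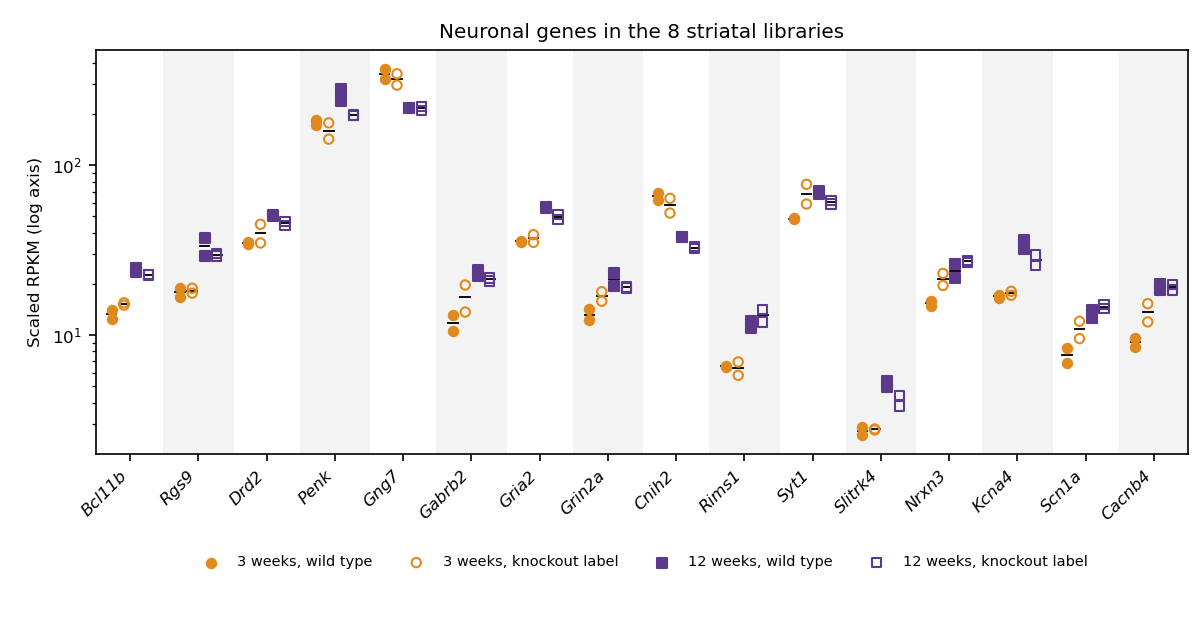
Scaled RPKM on a log axis for 16 neuronal genes in the 8 striatal libraries, 1 symbol per library and a black bar at each group's mean (n = 2). In wild type 14 of the genes lie higher at 12 weeks, as in Kcna4 (36.5 and 32.0 against 16.6 and 17.2), and Gng7 and Cnih2 lie lower.

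Genes of growing neurites moved in both directions. Of 36 immature neuron genes 8 fell and 6 rose, near the share of all genes, with 8 and 5 after length correction, and 4 fell without 3-week replicate 2 and 5 without 12-week replicate 1. Marcksl1, an actin-binding protein of growth cones and of glial precursors, fell from 34.6 and 28 to 6.1 and 4.27 RPKM (log2 change -2.50, SE 0.16, adjusted p = 1.14e-05). Dcx, the microtubule protein of migrating neurons, was low at both ages, at 1.18 and 1.17 and then 1.5 and 1.02. Of 18 mature cytoskeleton genes 6 rose and 0 fell, but after length correction 2 rose and 4 fell. The number that rose was 0 without scaling, without 3-week replicate 2 or without 12-week replicate 1. Map2, the dendritic microtubule protein, went from 59 and 51.6 to 74.6 and 70.6 (log2 change 0.39, SE 0.12, adjusted p = 0.0314), whereas Nefl, the light neurofilament, held 53.7 and 59.1 and then 42.9 and 49.1 and missed the threshold (log2 change -0.29, SE 0.11, adjusted p = 0.0553).

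Among 21 circadian clock genes 10 rose and 0 fell. Dbp, an output of the clock, went from 10.2 and 12.1 to 18 and 17.7 RPKM (log2 change 0.66, SE 0.15, adjusted p = 0.00773), and Per3 and Cry2 rose by 0.71 and 0.65. Arntl, the core activator, held 2.74 and 2.87 and then 3.04 and 2.37 and did not pass (adjusted p = 0.804), nor did Per1 and Per2. No hour of dissection is stated, so age and hour cannot be told apart for these genes. After length correction 7 rose and 0 fell. Without scaling 0 rose, without 3-week replicate 2 6 and without 12-week replicate 1 3.

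Mitochondrial respiration genes went the opposite way to the channels. Of 74 oxidative phosphorylation genes 37 fell and 3 rose, with a median of -0.40, and 33 fell after length correction and 28 after removing genes with copies. Atp5g1, a ring subunit of ATP synthase, and Ndufb9, of complex I, fell, with log2 changes of -1.01 and -0.99. Ndufa4, a subunit of the electron transport chain, went from 15.2 and 16.6 to 10.1 and 9.08 RPKM (log2 change -0.70, SE 0.17, adjusted p = 0.0124). In the knockout-labelled libraries 12 of the 74 fell and 5 rose, with a median of -0.01. Without 3-week replicate 2 the wild-type count was 23, and without 12-week replicate 1 it was 19. Cytosolic ribosomal protein genes, many of which have processed copies, had 18 of 72 lower and 9 higher (median -0.12), against 2 lower and 27 higher (median 0.33) between the knockout-labelled libraries. Length correction gave 16 lower and 14 higher in wild type. Without 12-week replicate 1 these were 11 and 3, without 3-week replicate 1 5 were higher, and after removing genes with copies 2 lower and 0 higher remained. Removed genes could not be called, so these 2 counts and the 28 above are out of fewer genes than 72 and 74.

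The same ages were then compared between the libraries labelled knockout, whose means share no library with the wild-type means. Both comparisons share the ages, the difference in depth between them and the estimate of spread, which all 8 libraries gave. Genes were kept by their wild-type values. The 2 sets of calls are therefore not independent. There 939 genes rose (8.72%) and 1140 fell (10.6%), 287 and 350 without knockout-labelled 12-week replicate 1 and 313 and 463 without replicate 2. Of the genes called in wild type, 670 also rose (6.22% of all tested) and 846 also fell (7.85%), and 0 were called in opposite directions. That is 38.2% of the wild-type calls and 72.9% of the knockout-labelled calls. Of the 3970 wild-type calls, 3708 had the same sign between the knockout-labelled libraries. The median size of the change was 0.58 in wild type and 0.35 for the same genes between the knockout-labelled libraries.

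The oligodendrocyte and sterol decreases were present in both sets. Premyelinating genes fell in 11 of 14 cases again, with a median of -1.22, myelin genes in 27 of 43 (median -0.81, 25 of them called in both) and sterol genes in 19 of 24 (median -0.71, 18 in both). Mog went from 60.1 and 52.2 to 10.9 and 10.6 RPKM in the knockout-labelled libraries and Gpr17 from 37 and 29.8 to 5.56 and 6.83. The ages did not overlap in either set. Astrocyte genes fell in 14 of 45 cases, with Gfap at 25.2 and 17.7 and then 4.11 and 8.92 RPKM (adjusted p = 0.00432, limma). Microglia genes fell in 5 of 26 cases (median -0.24), against 16 of 26 (median -0.55) in wild type, and this difference in counts was not tested.

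Neuronal lists had fewer genes called higher between the knockout-labelled libraries, where fewer genes were called in all, and this difference in counts was not tested. Of the spiny neuron genes 8 rose and 1 fell (median 0.19), and Bcl11b, at 15 and 15.5 and then 22.5 and 22.6 RPKM, and Rgs9, at 18.9 and 17.6 and then 30.3 and 29.2, were among them. Of the sodium and calcium channels 2 rose and 1 fell (median 0.07), of potassium channels 4 rose and 3 fell (median -0.04), of ionotropic glutamate genes 1 rose and 6 fell (median -0.01) and of vesicle genes 5 rose and 5 fell (median -0.17). Kcna4 rose there too, from 18.1 and 17.1 to 29.6 and 25.7 RPKM (adjusted p = 0.00417), whereas Syt1 held 77.2 and 59.1 and then 62 and 59.2 and did not pass. Of the 9 cortical excitatory markers 4 fell and 0 rose there, against 10.6% of all genes lower. Their median was -0.52, against 0.20 in wild type. Deposited RPKM of Slc17a7 in these libraries were 12.0 and 7.13 at 3 weeks and 1.49 and 1.36 at 12 weeks. What cortical RNA contributes to these neuronal lists was not tested.

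The difference between the age changes was tested directly, gene by gene. It was called for 0 of 10774 genes (0%) by limma, with a smallest adjusted p of 0.345, while at an unadjusted p under 0.05 there were 1332 genes against 539 that chance alone would give. No gene is therefore shown to change differently with age between the genotype labels. The smallest p belonged to Mme, neprilysin, a peptidase that degrades enkephalin, which went from 3.68 and 3.48 to 8.3 and 7.56 RPKM in wild type and held 4.61 and 4.13 and then 4.71 and 4.64 in the knockout-labelled libraries (difference of the log2 changes -0.95, unadjusted p = 9.88e-05).

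**Figure D5:**
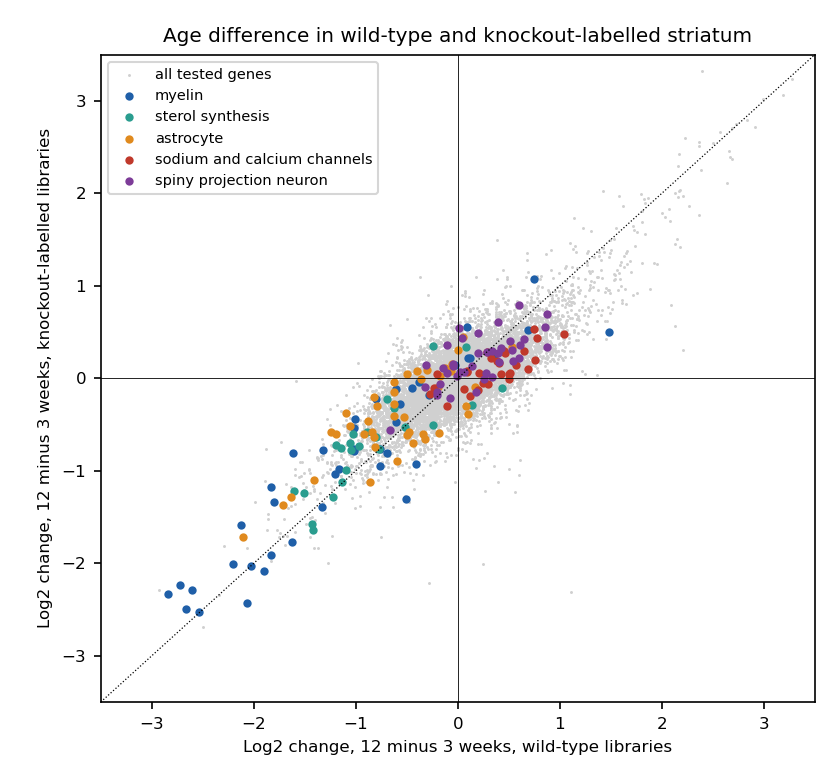
Log2 change from 3 to 12 weeks in wild-type (x axis) against knockout-labelled libraries (y axis) for all tested genes, with 5 lists coloured; 11 genes lie outside the axes at 3.5 in either direction. Myelin, sterol and astrocyte genes extend to the lower left, and most sodium and calcium channels lie to the right of 0 and below the dotted line of equal change.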

How the data were processed

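RNA from striatum was sequenced in 4 wild-type libraries and 4 labelled knockout. The authors deposited RPKM per gene symbol, and per the submitters' processing notes used CASAVA 1.8.2, cutadapt 1.6 and TopHat2 with mm9. The read counter, strand setting and treatment of reads with several matches were not stated in the sources, so overlapping, antisense and copied genes are uncertain. RPKM were scaled by median ratios, and log2(RPKM + 0.5) was fitted with limma 3.58.1 in R 4.3.3 as 4 group means over 8 libraries with a variance trend (4 residual degrees of freedom), with Benjamini-Hochberg adjustment over 10774 genes and a threshold of 0.05. The fit was tested on simulated data. Such changes understate those of genes with low values. Depth came from the RPKM step of 1 read in single-exon genes; 40.3% to 47.6% of values were whole within 0.05 read, so it is approximate and counts were not used. Transcript length, GC content and shared 50-base words came from a GENCODE annotation of GRCm38, another build than mm9, matched by symbol for 10339 genes. Comparisons were 12 against 3 weeks within each genotype label and their difference. Members and lists were chosen with earlier results of these data known. Named genes were the 15 with the largest called change per direction, the 6 of smallest p and the 2 of highest level per list, all switch genes and cell type markers and the 4 smallest interaction p-values; other list members with known roles were named after their values were seen, and some genes the rule names are not reported here. Alternatives were other scalings, pseudocounts, filters, thresholds, variance models, library sets, a replicate block and, added after seeing the data, removal of copied genes and corrections for length and GC.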

Additional observations from a re-analysis of the deposited data

How the results depend on the processing

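Precision is limited by 2 libraries per group, of unstated origin, and by the lower depth at 12 weeks, which age cannot be told apart from. Under each other setting, 0 of the wild-type calls that could be tested passed the threshold in the opposite direction. The genes higher at 12 weeks numbered 563 without scaling (2003 as reported), and the knockout-labelled calls were then 860 in all, 342 higher and 518 lower, with 30 list members higher in wild type. At an adjusted p threshold of 0.01 wild type had 2003 calls, 986 higher and 1017 lower, the knockout-labelled libraries 751, 324 and 427, and 102 list members were higher. With each library left out, wild-type calls ranged from 1805 to 4363, those higher from 816 to 2215 and those lower from 989 to 2159. The knockout-labelled calls ranged from 637 to 2043, those higher from 287 to 919 and those lower from 350 to 1125. List members higher ranged from 79 to 223 and lower from 164 to 276. Interaction calls ranged from 0 to 2 with each library left out (Hist1h4n and Lars2, or Cck) and were 6 with no filter, all small RNA genes. Sign turns were followed only in the 327 named genes, and only where a gene was called in the main fit or the alternative. The 5 found were Homer1 (-0.03) and Uty (-0.35) under the GC correction, Grin2b (-0.12) and Kcna2 (-0.01) under the length correction and Mapt (-0.03) without scaling. The cause was not tested. Removing genes with copies kept 99.7% of the calls that could be tested, the length correction 79.2% and the GC correction 83.8%. The deviations of same-numbered wild-type libraries of the 2 ages correlated at r = 0.386. This is a single value because with 2 replicates the second pair mirrors the first. Only a number is shared, and a replicate block gave 2204 higher and 2123 lower.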

Other observations

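Growth factor genes, not described above, moved in both directions. Of 29 tested, 10 fell and 4 rose, 13 and 3 after length correction; 5 fell without 3-week replicate 1 and 6 without 12-week replicate 1. Igf2, a growth factor of meninges and vessels, went from 2.56 and 2.51 RPKM at 3 weeks to 0.995 and 0.91 at 12 weeks (log2 change -1.06, SE 0.14, adjusted p = 0.00064, limma), and Erbb3, the neuregulin receptor of the oligodendrocyte lineage, fell, with a log2 change of -1.30. Igfbp2 and Igfbp3, which bind insulin-like growth factors, fell, with log2 changes of -0.82 and -1.05. Nrg1, Nrg3, Vegfa and Igf1r rose by 0.67, 0.56, 0.63 and 0.49, and 0 of these 4 were called without 12-week replicate 1. Among chromatin regulators 9 of 31 rose and 1 fell, Rai1 and Bcl11b among those that rose, but after length correction 5 rose and 4 fell. Without correction the number that rose was 4 when 3-week replicate 2 was left out and 2 when 12-week replicate 1 was. Dnmt3a, the methyltransferase active after birth, held 9.85 and 7.91 and then 8.93 and 7.44 RPKM with overlapping ages.

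Neat1, the long noncoding RNA of paraspeckles, was the 1 gene among the 15 largest increases measured to share under 5% of its 50-base words. It held 0.315 and 0.266 RPKM in the 3-week wild-type libraries and 7.56 and 3.89 at 12 weeks (log2 change 2.91, SE 0.29, adjusted p = 0.00016), and 0.482 and 0.28 and then 4.03 and 6.82 in the knockout-labelled ones. Over both genotype labels, deposited values were 2.69 to 4.26 RPKM in the 3-week cortex and 4.07 to 6.57 in the 8-week hypothalamus. The 3-week striatal libraries were thus the low ones. Meg3, another long noncoding RNA, rose from 21.5 and 17.7 to 73.8 and 46.3 RPKM (log2 change 1.56, SE 0.27, adjusted p = 0.00224), and Akap9, a scaffold of the centrosome and Golgi, from 7.07 and 4.05 to 22.4 and 20 (log2 change 1.88, SE 0.22, adjusted p = 0.000374).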
